A study of Homo sapiens with 32 samples.

Results

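The 10 genes described here encode brakes on MAP kinase signalling: the dual-specificity phosphatases DUSP1, DUSP2, DUSP4, DUSP5, DUSP6, DUSP8, DUSP10 and DUSP16, and the Sprouty proteins SPRY2 and SPRY4. They were taken by gene symbol, and all 10 were present among 24242 genes with a symbol. New RNA from them was followed through exit from mitosis in HUH7, an established human hepatoma line. Cells were given 5-ethynyl uridine (EU), which enters RNA in place of uridine while it is being made, and the RNA holding EU was captured through a biotin joined to it and sequenced. All 6 release groups had been held in 2 mM thymidine for 24 hours, freed from it for 2 hours and treated for 16 hours with 0.06 ug/mL nocodazole, which stops the spindle. Cells that had stopped in mitosis were shaken off, washed free of the drug and replated, and EU labelling was done at release times of 0, 40, 80, 105, 165 and 300 minutes. The seventh group was an asynchronous culture labelled without thymidine, nocodazole or shake-off, so the drugs, the handling and the stage of the cell cycle cannot be told apart in any comparison with it. EU was given at 0.5 mM for 40 minutes in all 7 groups, and the labels do not say whether a stated time marks the start or the end of that pulse.

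Growth factors and stress set off chains of kinases that end in the MAP kinases ERK, JNK and p38. A MAP kinase is active while a threonine and a tyrosine in its activation loop carry phosphate, and the DUSP enzymes remove both. DUSP1, DUSP2, DUSP4 and DUSP5 act in the nucleus and are classic inducible genes, DUSP6 acts on ERK in the cytoplasm, and DUSP8, DUSP10 and DUSP16 prefer JNK and p38. The Sprouty proteins act further up, between growth factor receptors and RAS or RAF. Since ERK signalling switches on many of these genes, they are commonly described as negative feedback.

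The labels list 3 samples in each group, but the deposited table has 1 value per group, so every difference here sets 1 authors' value against another, with no replicate error, no test and no replicate check. Values are FPKM (fragments per kilobase, scaled to the size of the library), a level relative to the captured RNA of each group and not an amount per cell. The read totals behind the scaling were not given, so a value is not read as an exact share. In bulk samples, fewer cells making an RNA and less of it per cell cannot be told apart. Unlabelled and spike-in samples are in the labels but were not analysed here, so no background stands beside the values. All transcripts summed to between 6.24e+06 and 1.06e+07 FPKM per group. Genes were kept that reached 1 FPKM in 3 or more groups, 22940 in number with all 10 brakes among them, and their median lay between 40.1 FPKM at 0 minutes and 53.5 FPKM at 105 minutes. All 10 liver markers checked (ALB, AFP, APOB and others) were above 0 in every group, with summed levels of 2759.9 to 4935 FPKM in the release groups and 17168 FPKM in the asynchronous culture. Markers of blood, endothelium and stroma summed to 88.3 to 191 FPKM in the release groups and 91.3 FPKM in the asynchronous culture, with HBB at 0 in every group but 40 minutes; their part in the results was not tested.

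Promoter sequences of 4 of these genes are shown because 2 of them, DUSP1 and DUSP8, carry the whole cyclic AMP response element (CRE), TGACGTCA, and the Sprouty genes carry its part TGACG. The RefSeq promoter table (GRCh38.p14; 250 bases before to 50 after each start) held 8 of the 10 genes, all but DUSP4 and DUSP5, in 11 windows. The bases before the start of DUSP1 (chr5:172771196-172771445, minus strand), DUSP8 (chr11:1572272-1572521, minus strand), the first of 3 SPRY2 starts (chr13:80341127-80341376, minus strand) and SPRY4 (chr5:142324248-142324497, minus strand) follow, 5′ to 3′ on the strand of the gene. Capitals mark TGACG on either strand, the whole TGACGTCA, and in DUSP1 the TATA box letters TATAAA.
DUSP1: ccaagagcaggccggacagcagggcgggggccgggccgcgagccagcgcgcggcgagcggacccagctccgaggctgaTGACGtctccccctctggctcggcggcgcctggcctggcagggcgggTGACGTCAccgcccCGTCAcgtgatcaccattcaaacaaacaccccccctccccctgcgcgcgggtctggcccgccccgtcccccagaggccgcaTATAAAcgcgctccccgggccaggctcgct
DUSP8: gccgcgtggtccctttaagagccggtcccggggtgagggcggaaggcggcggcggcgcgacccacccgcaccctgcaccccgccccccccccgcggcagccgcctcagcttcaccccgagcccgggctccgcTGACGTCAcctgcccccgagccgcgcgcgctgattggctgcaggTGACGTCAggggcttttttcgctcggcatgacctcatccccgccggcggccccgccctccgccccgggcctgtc
SPRY2: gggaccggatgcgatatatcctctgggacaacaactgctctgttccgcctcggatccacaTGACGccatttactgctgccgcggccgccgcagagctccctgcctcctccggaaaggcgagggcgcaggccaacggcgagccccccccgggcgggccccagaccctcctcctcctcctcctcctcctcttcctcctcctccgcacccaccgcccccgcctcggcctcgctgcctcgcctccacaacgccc
SPRY4: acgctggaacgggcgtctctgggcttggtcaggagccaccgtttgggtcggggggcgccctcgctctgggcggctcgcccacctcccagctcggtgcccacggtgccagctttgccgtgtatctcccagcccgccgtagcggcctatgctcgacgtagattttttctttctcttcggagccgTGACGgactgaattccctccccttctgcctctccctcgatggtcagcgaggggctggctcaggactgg

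TGACGTCA reads the same on both strands. DUSP1 had it once, from 125 to 118 bases before the start, and DUSP8 had it at 118 to 111 and again at 74 to 67 bases before. Of all 35116 windows in the table, 1.85% held these letters. TGACG, part of that motif, stood in windows of 5 genes (DUSP1, DUSP8, DUSP10, SPRY2 and SPRY4) and in 24.6% of all windows. TATAAA stood 30 to 25 bases before the start of DUSP1 alone among the 8 genes, against 11.5% of all windows. The GC box letters GGGCGG were in 7 of the 8 genes and 45% of all windows, and the ETS core GGAAG in 6 of the 8 genes and 71.9% of all windows, so both are common letters. The AP-1 letters TGACTCA and the CArG box were in none of the 8 genes, against 4.95% and 1.29% of all windows. A gene was counted if any of its windows matched, while the shares are over single windows. SPRY2 has 3 windows and DUSP10 has 2, so these genes had more places to match. All motifs were searched on both strands, and a match is only a description of the letters in the window.

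**Figure D1:**
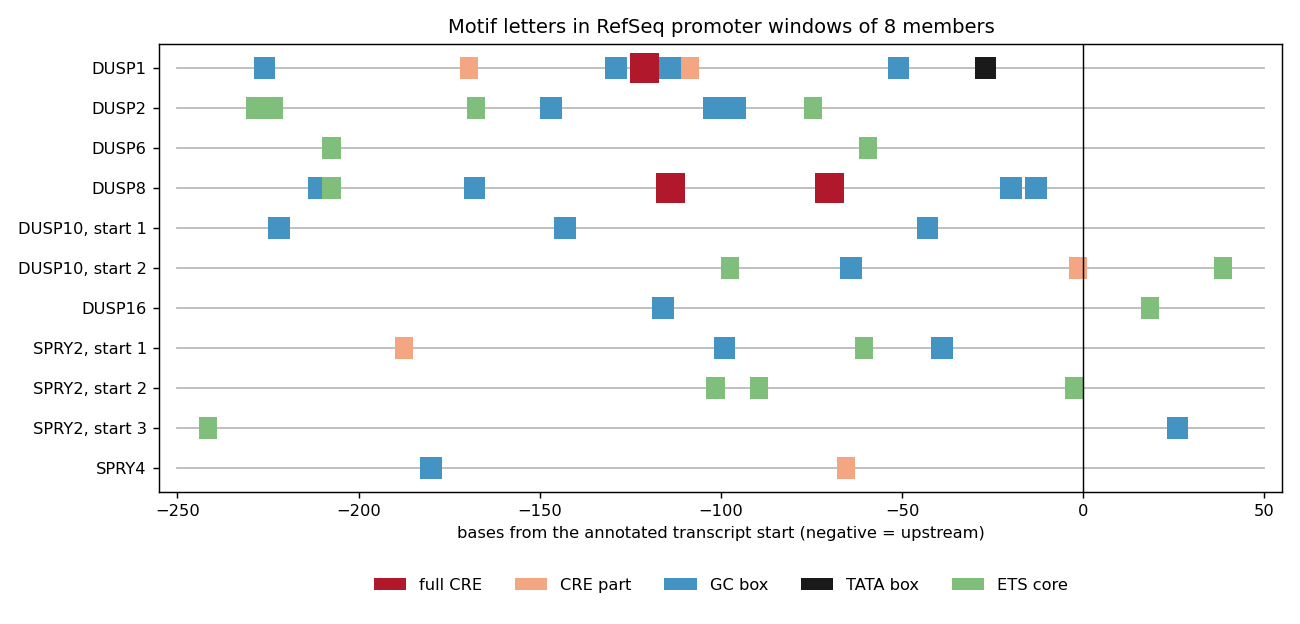
Motif letters in the 11 promoter windows of 8 genes, by distance in bases from the transcription start on the x axis, with 1 row per window and a coloured box at each match on either strand (CRE parts within a full CRE are covered by its box). DUSP1 and DUSP8 carry the whole CRE, DUSP8 at 2 places, and DUSP1 has the TATA box letters 30 to 25 bases before its start.

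Among the nuclear, inducible phosphatases, DUSP1 stood far above the others. DUSP1, which acts on p38, JNK and ERK, had 7629.8 FPKM at 0 minutes, 9650.0 at 40, 7974 at 80, 7766 at 105, 5531 at 165 and 3756 at 300 minutes, against 5373 FPKM in the asynchronous culture. It was the first of all 22940 genes by FPKM at 0 minutes, the second at 40, number 9 at 80 and at 105, number 21 at 165, number 56 at 300 minutes and number 11 in the asynchronous culture. The 5 release groups up to 165 minutes lay above the asynchronous culture and the group at 300 minutes below it, with 38.9% of the 40 minute level left; with quantile normalization the 165 minute group was below it too. The DUSP1 promoter printed above is the one with the TATA box letters and a single whole CRE.

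DUSP4, a nuclear phosphatase of ERK and JNK, had 939.7 FPKM at 0 minutes, 1450.3 at 40, 1074 at 80, 930.1 at 105, 639.9 at 165 and 519 at 300 minutes, against 805 FPKM in the asynchronous culture. Its order over the release was close to that of DUSP1, highest at 40 minutes and lowest at 300 minutes, where 35.8% of its highest level was left. The groups at 165 and 300 minutes lay below the asynchronous culture, and with quantile normalization that at 105 minutes as well. Its transcript records differed little: at 40 minutes NM_057158 had 1485 FPKM and NM_001394 had 1416 FPKM, and both were highest at that time.

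DUSP5, a nuclear phosphatase selective for ERK, had 1804 FPKM at 0 minutes, 2383 at 40, 2188 at 80, 2553 at 105, 2439.6 at 165 and 1805 at 300 minutes, against 836 FPKM in the asynchronous culture. Every release group lay above the asynchronous culture, from 2.16-fold at 0 minutes to a log2 difference of 1.61 at 105 minutes. Over the release itself it varied least, with a highest group 1.41 times the lowest. By rank it was number 156 to 269 in the release groups and number 922 in the asynchronous culture.

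DUSP2, best known from activated immune cells, was near 0. It had 1.79 FPKM at 0 minutes, 7.58 at 40, 4.48 at 80, 1.83 at 105 and 0.459 at 165 minutes, was listed at 0 at 300 minutes, and had 4.79 FPKM in the asynchronous culture. Low values in each column repeated in equal steps, and DUSP2 came to 4.88 steps at 40 minutes and 1.00 at 0 minutes. If 1 step is 1 read, the 95% exact Poisson intervals for the nearest whole number are 1.62 to 11.7 and 0.0253 to 5.57. At 165 minutes DUSP2 came to 0.449 of a step, so a step is not strictly 1 read and these counts are approximate. The intervals overlap between all groups, but overlap is not a test, and they are not corrected for the unequal depth of the groups. Whether DUSP2 differed between groups was therefore not decided. The other 9 genes came to 537 or more steps in every group. With 1 step taken as 1 read, that is at most 4.32% of counting error, which covers counting alone.

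The cytoplasmic ERK phosphatase DUSP6 had 1893 FPKM at 0 minutes, 2488 at 40, 2210.3 at 80, 2870.3 at 105, 2221 at 165 and 1317 at 300 minutes, against 2933 FPKM in the asynchronous culture. It came level with the asynchronous culture at 105 minutes (97.8%) and had 44.9% of it at 300 minutes. In no release group was it above the asynchronous culture, except at 40 minutes with columns set to equal medians. Its 2 transcript records held identical values.

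The phosphatases that prefer JNK and p38 did not share one course. DUSP8 had 233 FPKM at 0 minutes, 279.5 at 40, 362 at 80, 367 at 105, 198 at 165 and 70.0 at 300 minutes, against 233 FPKM in the asynchronous culture. Its highest release group was 5.25 times its lowest, the widest span among the 9 genes never listed at 0, and 19.1% of its highest level was left at 300 minutes. The promoter of DUSP8, printed above, is the one with 2 whole CRE motifs.

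DUSP10 had 492 FPKM at 0 minutes, 574 at 40, 589.9 at 80, 563 at 105, 408 at 165 and 677 at 300 minutes, against 353 FPKM in the asynchronous culture. As deposited it alone among the 10 genes was highest at 300 minutes (not with equal medians or quantile normalization), directly after its lowest release group at 165 minutes, and it was above the asynchronous culture in all 6 release groups. At 300 minutes it had 192% of the asynchronous level. Its transcript records kept this order, with 702 FPKM at 300 and 423 at 165 minutes for the coding NM_007207, and 652 and 392 FPKM for the noncoding NR_111939.

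DUSP16 had 224 FPKM at 0 minutes, 231 at 40, 169 at 80, 189 at 105, 168 at 165 and 125 at 300 minutes, against 481 FPKM in the asynchronous culture. All 6 release groups were below the asynchronous culture, the highest with 48.2% of it and the group at 300 minutes with 26.1%. DUSP16 and DUSP10 therefore lay on opposite sides of the asynchronous culture at every release time.

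The 2 Sprouty genes had similar courses over the release at different levels against the asynchronous culture. SPRY2 had 1273 FPKM at 0 minutes, 1422 at 40, 1856 at 80, 2301 at 105, 2309 at 165 and 1572 at 300 minutes, against 1362 FPKM in the asynchronous culture. SPRY4 had 717 FPKM at 0 minutes, 758 at 40, 846 at 80, 1197 at 105, 1198 at 165 and 576 at 300 minutes, against 1862 FPKM in the asynchronous culture. As deposited both were highest at 105 and 165 minutes (SPRY4 at 0 minutes with quantile normalization), with nearly the same value at these times. SPRY2 was above the asynchronous culture from 40 minutes on (with equal medians or quantile normalization from 0 minutes on), and SPRY4 was below it in all 6 release groups, with 64.3% of it at most and 30.9% at 300 minutes. At 300 minutes SPRY2 had 68.1% and SPRY4 had 48.1% of the highest release level.

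**Figure D2:**
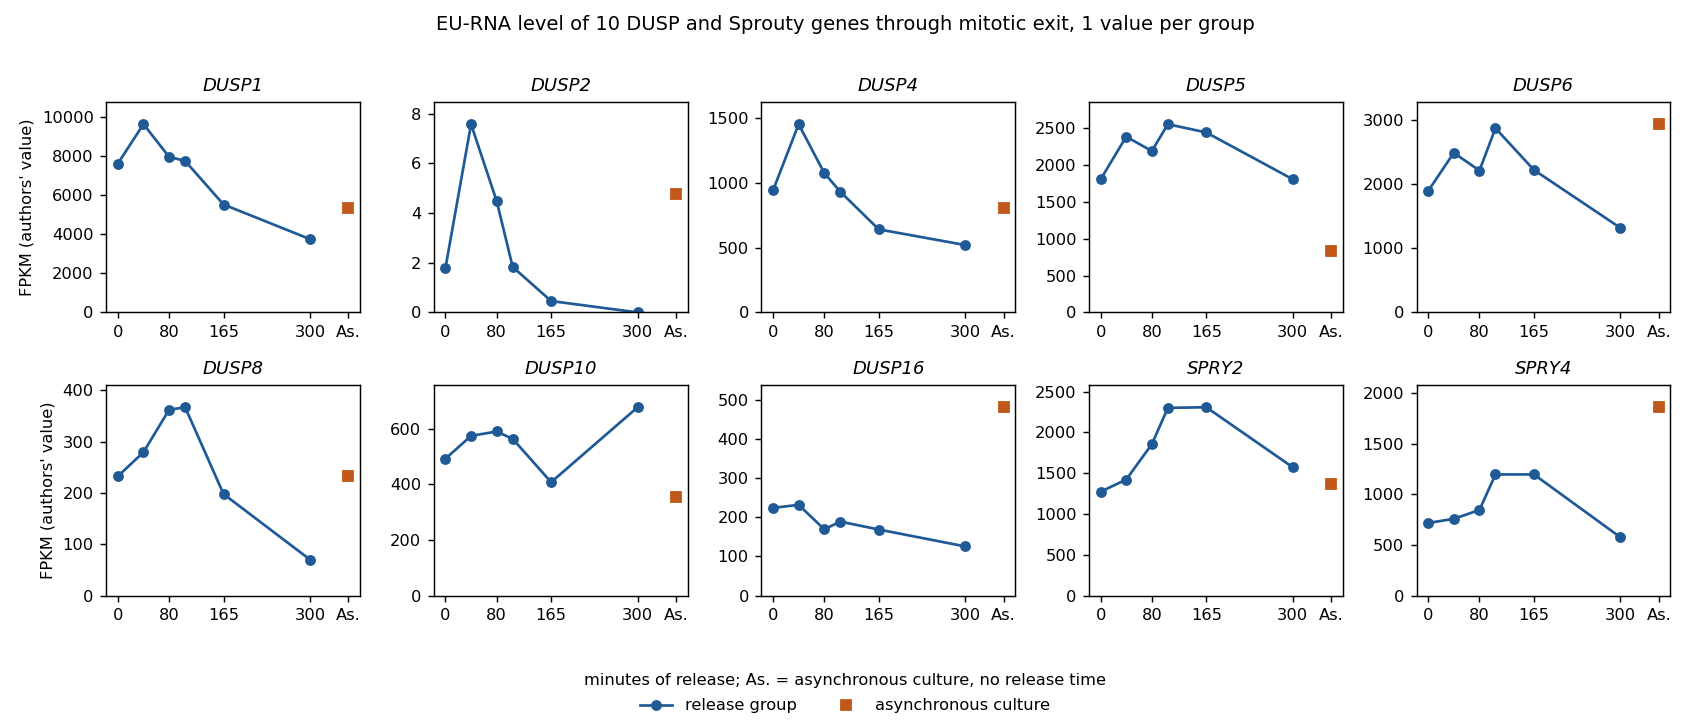
FPKM of the 10 genes (1 panel each, own y axis) against minutes of release, 1 circle per authors' value, with the asynchronous culture (As.) as a square at the right. DUSP1, DUSP2, DUSP4 and DUSP16 were highest at 40 minutes, DUSP5, DUSP6 and DUSP8 at 105, SPRY2 and SPRY4 at 165 and DUSP10 at 300 minutes; with equal medians DUSP5, DUSP6 and DUSP10 were highest at 40 and DUSP16 at 0 minutes, and with quantile normalization DUSP2 and DUSP4 stayed highest at 40 and SPRY2 at 165 minutes, while DUSP1, DUSP5, DUSP8, DUSP10, DUSP16 and SPRY4 were highest at 0 and DUSP6 at 40 minutes.

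By the deposited FPKM, 4 of the 10 genes were highest at 40 minutes, 3 at 105, 2 at 165 and 1 at 300 minutes. Over all 22940 genes the shares with their highest release group at these times were 13.8%, 12.5%, 13.1% and 21.1%, with a further 16.4% at 0 and 23.1% at 80 minutes, where none of the 10 was highest. The time of the highest level depended on how columns were scaled. With columns set to equal medians, DUSP5, DUSP6 and DUSP10 were highest at 40 and DUSP16 at 0 minutes, and the other 6 kept their times. With quantile normalization, DUSP1, DUSP5, DUSP8, DUSP10, DUSP16 and SPRY4 were highest at 0 and DUSP6 at 40 minutes. DUSP2 and DUSP4 at 40 minutes and SPRY2 at 165 minutes held under all 3 scalings.

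Overlapping transcription limits some of these values, because the libraries were stranded but the use of strand in counting is not stated. DUSP8 overlaps KRTAP5-AS1 on the other strand, which had 57.8 FPKM at 0 minutes, 62.7 at 40, 79.7 at 80, 85.4 at 105, 45.9 at 165 and 21.1 at 300 minutes, against 31.3 FPKM in the asynchronous culture. SPRY4 overlaps SPRY4-AS1, with 18.9 to 36.1 FPKM in the release groups and 74.3 FPKM in the asynchronous culture. SPRY4-IT1, a transcript within the SPRY4 locus, had 697 FPKM at 0 minutes, 783 at 40, 798 at 80, 1233 at 105, 1215 at 165 and 409.5 at 300 minutes, against 1558 FPKM in the asynchronous culture. It ran close to SPRY4 itself, and the reads of both cannot be told apart. GENCODE 29 also places an antisense gene over DUSP1, DUSP6 and DUSP16, and none over DUSP2, DUSP4, DUSP5, DUSP10 or SPRY2. RefSeq further lists POC1B-DUSP6 over DUSP6 and LOC124902608 over DUSP8. Neither had a value here, so their part in the levels of DUSP6 and DUSP8 was not tested.

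At 0 minutes against the asynchronous culture, DUSP5 was higher and SPRY4 and DUSP16 were lower by at least 2-fold. Folds were taken on FPKM + 1, which makes those of low genes too small. DUSP5 had 1804 FPKM at 0 minutes and 836 FPKM in the asynchronous culture (2.16-fold higher). SPRY4 had 717 FPKM at 0 minutes and 1862 FPKM in the asynchronous culture (2.59-fold lower), and DUSP16 had 224 FPKM at 0 minutes and 481 FPKM in the asynchronous culture (2.14-fold lower). With DUSP2, which is too low to tell, 1 of 10 genes was at least 2-fold higher and 3 were at least 2-fold lower, where 14.1% of all genes were higher and 19% were lower. DUSP1 was higher by 1.42-fold, and DUSP8 and SPRY2 were within 0.10 of the asynchronous culture on the log2 scale. The median of the 10 genes was a log2 difference of -0.05, with -0.14 over all genes. DUSP8 and SPRY2 had the opposite sign with equal medians and with quantile normalization. DUSP16 was less than 2-fold apart under both (-0.74 and -0.49), and SPRY4 under quantile normalization (-0.84), where DUSP10 was at least 2-fold higher (1.09).

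The median over all genes itself differed between groups, by 0.10 for 40 against 0 minutes, 0.18 for 80 against 40, -0.04 for 105 against 80, -0.09 for 165 against 105, -0.02 for 300 against 165, 0.21 for 300 against 0 minutes and 0.11 for 300 minutes against the asynchronous culture, all log2. At 40 against 0 minutes every one of the 10 genes was higher as deposited, with a median of 0.30, although with equal medians DUSP16 and SPRY4 were lower, and with quantile normalization DUSP1, DUSP5, DUSP8, DUSP10, DUSP16, SPRY2 and SPRY4 were lower. DUSP4, higher under both as well, had 1450.3 FPKM at 40 and 939.7 at 0 minutes. Only DUSP2 passed 2-fold, with a handful of reads, and none was 2-fold lower, where 3.24% of all genes were higher and 2.05% were lower.

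Between 40 and 105 minutes the 10 genes as deposited differed by less than 2-fold at each step. With quantile normalization DUSP16 was at least 2-fold lower at 80 than at 40 minutes (-1.01), and with a pseudocount of 0.1 FPKM DUSP2 was so at 105 against 80 minutes (-1.25). At 80 against 40 minutes none of the 10 was 2-fold apart, where 13.5% of all genes were higher and 2.72% were lower, and their median was -0.15. DUSP8 and SPRY2 were higher (362 and 1856 FPKM at 80, against 279.5 and 1422 FPKM at 40 minutes), but lower with quantile normalization. DUSP10 and SPRY4 were slightly higher as deposited and lower with equal medians and with quantile normalization. At 105 against 80 minutes none was 2-fold apart either, with 2.02% of all genes higher and 2.57% lower, and the median was 0.09. DUSP6 and SPRY4 had the largest differences among the 9 measurable genes, with 2870.3 and 1197 FPKM at 105, against 2210.3 and 846 FPKM at 80 minutes. DUSP8 had the opposite sign with quantile normalization.

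After 105 minutes most of the phosphatase genes were lower at each step. At 165 against 105 minutes none of the 10 was 2-fold apart, with 2.27% of all genes higher and 5.27% lower, and their median was -0.42. DUSP2, resting on a few reads, was at least 2-fold lower with a pseudocount of 0.1 FPKM (-1.79) and with quantile normalization (-1.26). DUSP1 had 5531 FPKM at 165 and 7766 at 105 minutes, DUSP4 had 639.9 and 930.1 FPKM, and DUSP8 had 198 and 367 FPKM at the same times. DUSP5 was lower as deposited and higher with equal medians and with quantile normalization. SPRY2 (2309 FPKM at 165 and 2301 at 105 minutes) and SPRY4 (1198 and 1197 FPKM) hardly differed at this step. At 300 against 165 minutes, DUSP8 (70.0 FPKM at 300 and 198 at 165 minutes, 2.80-fold) and SPRY4 (576 FPKM at 300 and 1198 at 165 minutes, 2.08-fold) were at least 2-fold lower and none was 2-fold higher, where 3.04% of all genes were higher and 4.1% were lower. The median of the 10 genes was -0.55. With quantile normalization SPRY4 was just short of 2-fold (-0.91). DUSP10 was the exception in direction, with 677 FPKM at 300 and 408 at 165 minutes, 1.66-fold higher.

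**Figure D3:**
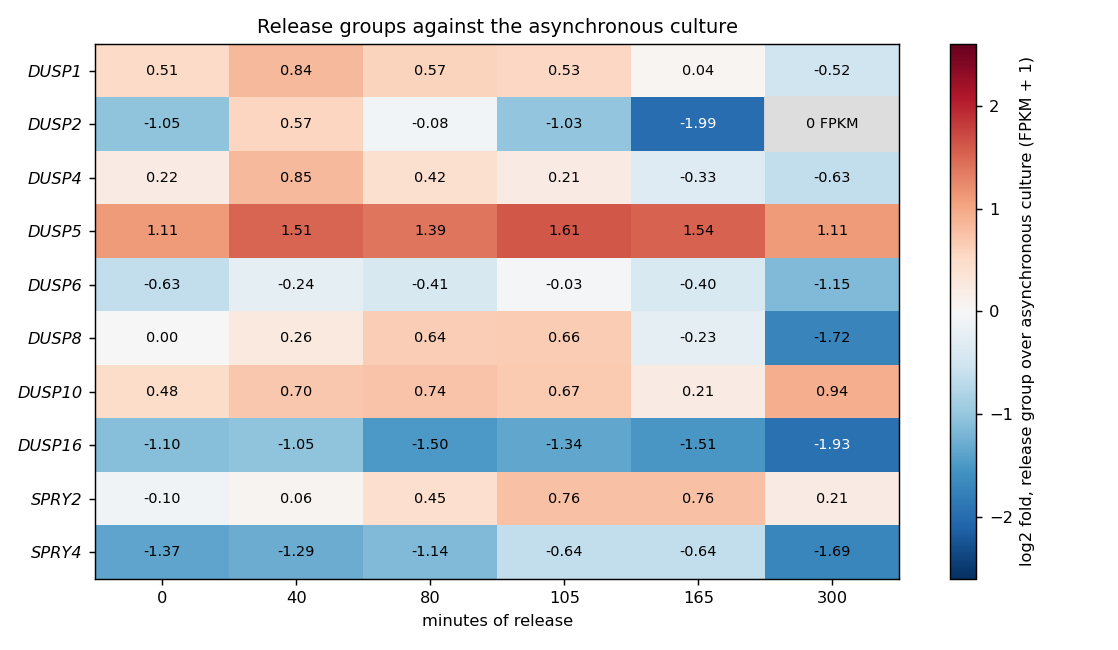
Log2 fold of each release group over the asynchronous culture, on FPKM + 1, for the 10 genes (rows) at 6 release times (columns); DUSP2 at 300 minutes is listed at 0 and has no fold. DUSP5 and DUSP10 were above the asynchronous culture and DUSP16 and SPRY4 below it at every release time, while DUSP1, DUSP4 and DUSP8 were above it at 40 minutes and below it at 300 minutes. The sign was the opposite for DUSP8 and SPRY2 at 0 minutes with equal medians and with quantile normalization, for DUSP6 at 40 minutes with equal medians, and for DUSP4 at 105 and DUSP1 at 165 minutes with quantile normalization.

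Over the whole release, 300 against 0 minutes, DUSP1 and DUSP8 were at least 2-fold lower and none of the 10 genes was 2-fold higher. DUSP1 had 3756 FPKM at 300 and 7629.8 at 0 minutes (2.03-fold lower), and DUSP8 had 70.0 FPKM at 300 and 233 at 0 minutes (3.29-fold lower). Counting DUSP2, listed at 0 at 300 minutes, 3 of 10 were lower, where 18.9% of all genes were higher and 8.82% were lower. The median of the 10 genes was -0.68, or -0.52 without DUSP2, while that of all genes was 0.21. DUSP10 and SPRY2 were above the median of all genes and the other 8 were below it. DUSP5 and SPRY2 were lower with equal medians and with quantile normalization, and DUSP10 with quantile normalization. DUSP4 (-1.23 and -1.43) and DUSP16 (-1.20 and -1.58) were then also at least 2-fold lower. Those scalings also moved the all-gene split: of genes at least 2-fold apart, 68.2% were higher as deposited, 34.8% with equal medians and 49.6% with quantile normalization.

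At 300 minutes the 10 genes had not come to one place against the asynchronous culture. DUSP5 was 2.16-fold higher, with 1805 FPKM at 300 minutes and 836 FPKM in the asynchronous culture, and DUSP10 was 1.92-fold higher. DUSP16 was 3.81-fold lower (125 FPKM at 300 minutes, 481 FPKM asynchronous), DUSP8 was 3.29-fold lower, SPRY4 was 3.23-fold lower and DUSP6 was 2.23-fold lower. With DUSP2 counted, 1 of 10 genes was at least 2-fold higher and 5 were at least 2-fold lower, where 9.84% of all genes were higher and 8.57% were lower. Their median was -0.89, or -0.63 without DUSP2, and that of all genes was 0.11. This comparison shares its 300 minute value with the preceding one, so the counts are not independent.

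Some genes switched on by ERK stood further apart in the same comparisons than the 10 brakes did. Of 22 ERK-responsive target genes, 10 were at least 2-fold lower and 1 was higher at 300 against 0 minutes, where 8.82% of all genes were lower and 18.9% were higher. Their median was -0.64, near the -0.68 of the 10 brakes. FOS, an AP-1 subunit, had 141 FPKM at 300 and 3819 at 0 minutes (26.9-fold lower), and EGR1, an immediate early transcription factor, had 257 and 1968 FPKM at the same times (7.62-fold lower). ATF3 was 12.4-fold and EGR3 8.01-fold lower. At 300 against 165 minutes 9 of the 22 were lower and 1 was higher, where 4.1% of all genes were lower and 3.04% were higher. At 40 against 0 minutes none was 2-fold apart, with 2.05% of all genes lower and 3.24% higher. By highest release group as deposited, 9 of the 22 stood at 40 minutes and 10 at 105 minutes, where 13.8% and 12.5% of all genes stood. These times were not recomputed under the other scalings. The shapes of single genes differed: FOS had 5363 FPKM at 40 and 1803 at 80 minutes, while DUSP1 had 9650.0 and 7974 FPKM at the same times.

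Other brakes on receptor and RAS signalling were mixed. ERRFI1, an inhibitor of the EGF receptor, had 4113 FPKM at 0 minutes, 4928 at 40, 5978 at 80, 7155 at 105, 6407 at 165 and 3656 at 300 minutes, against 3631 FPKM in the asynchronous culture. As deposited, that is a course with its top at 105 minutes, as for DUSP5, DUSP6 and DUSP8. None of these phosphatase genes held that time under every scaling, and the time of ERRFI1 was not recomputed. Of 12 such genes, 3 were at least 2-fold lower and 1 was higher at 300 against 0 minutes, with a median of 0.03, where 8.82% of all genes were lower and 18.9% were higher. The cytokine signalling inhibitors SOCS3 (119 FPKM at 300 and 752 at 0 minutes, 6.26-fold), SOCS1 (5.07-fold) and SOCS2 (2.92-fold) were the 3 lower ones, and RASA1, which switches RAS off, was 2.58-fold higher. At 0 minutes against the asynchronous culture 4 were higher and 1 was lower, with 14.1% of all genes higher and 19% lower. The 4 were SOCS2 (5.87-fold), SOCS1 (3.48-fold), ZFP36 (3.39-fold) and SOCS3 (2.96-fold). ZFP36 acts on mRNA decay and not on receptors or RAS, so the name of the list is loose for it.

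Of 8 other typical DUSP and Sprouty-family genes, 2 were at least 2-fold higher and none was lower at 80 against 40 minutes, with a median of 0.56, where 13.5% of all genes were higher and 2.72% were lower. SPRY1 had 504 FPKM at 80 and 93.2 at 40 minutes, 5.36-fold higher, and DUSP7, a cytoplasmic ERK phosphatase, had 108 and 42.4 FPKM at the same times. At 0 minutes against the asynchronous culture 3 were lower and 1 was higher, with 19% of all genes lower and 14.1% higher. DUSP9, the third cytoplasmic ERK phosphatase, had 37.5 FPKM at 0 minutes and 556 FPKM in the asynchronous culture (14.5-fold lower), and SPRY1 had 66.3 and 533 FPKM in the same groups (7.93-fold lower). At 300 against 0 minutes 2 of the 8 were higher and none was lower, with 18.9% of all genes higher and 8.82% lower. Their median was 0.48, and with a minimum of 10 FPKM it was below that of all genes.

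Upstream, the signalling chain itself as deposited stood higher at 300 than at 0 minutes more often than lower, as for all genes (18.9% higher and 8.82% lower). With equal medians the split of all genes was the opposite, with 2187 at least 2-fold higher and 4103 lower. Counts within the lists were not recomputed under the other scalings. Of 19 receptors and adaptors, 4 were at least 2-fold higher and 1 was lower, with a median of 0.46, which was below the all-gene median with quantile normalization. The docking protein GAB1 (3.56-fold) and the receptor ERBB3 (2.89-fold), the FGF receptor adaptor FRS2 (2.39-fold) and EGFR (1301 FPKM at 300 and 553 at 0 minutes, 2.35-fold) were the higher ones. Of 16 genes from RAS to ERK and its effector kinases, 4 were higher and none was lower, with a median of 0.15. RPS6KA3, which encodes the ERK-activated kinase RSK2, had 1719.9 FPKM at 300 and 429 at 0 minutes. Of 20 genes of the JNK and p38 cascades, 2 were higher (MAP2K7 2.99-fold and MAP3K4 2.15-fold) and none was lower, with a median of 0.31, which was below the all-gene median with quantile normalization and with a minimum of 10 FPKM. Of 11 ligands, of EGF and FGF receptors but for HGF, which binds MET, none was higher and 3 were lower. The lower ones were AREG (642 FPKM at 300 and 1547 at 0 minutes, 2.41-fold), HBEGF (2.17-fold) and HGF. HGF was near the floor, with 1.25 FPKM at 300 and 3.76 at 0 minutes. HBEGF was also counted among the ERK-responsive target genes.

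**Figure D4:**
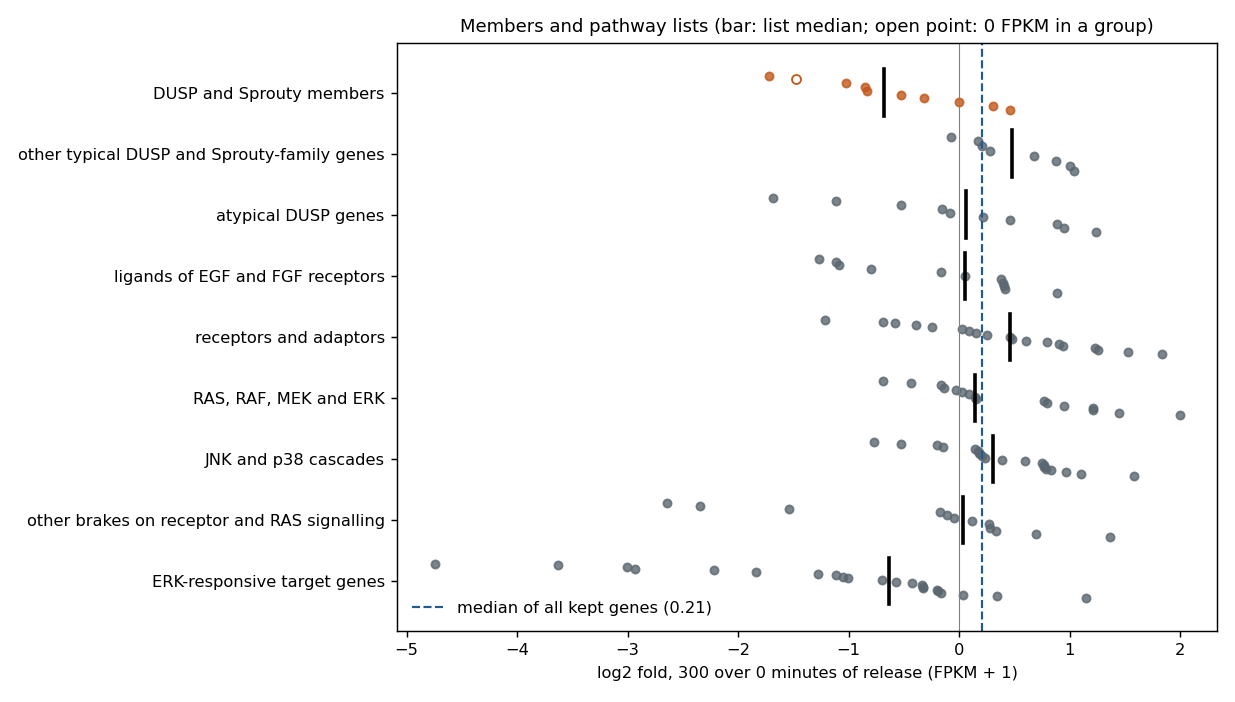
Log2 fold of 300 over 0 minutes of release, on FPKM + 1, for the 10 genes (top row) and 8 lists of the MAP kinase pathway, 1 point per gene, with a bar at each list's median and a dashed line at the median of all kept genes (0.21). The medians of the 10 genes (-0.68), the ERK-responsive targets (-0.64), the atypical DUSP genes (0.06), the ligands (0.05), the RAS to ERK genes (0.15) and the other brakes (0.03) lie below the dashed line, though that of the ligands lies above the all-gene median with the highest-mean transcript. The medians of the other typical family genes (0.48), the receptors and adaptors (0.46) and the JNK and p38 cascades (0.31) lie above it, but the receptors and the cascades lie below the all-gene median with quantile normalization, and the family genes and the cascades with a minimum of 10 FPKM. The open point is DUSP2, listed at 0 at 300 minutes.

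For each of the 10 genes, the 3 genes with the most similar course were found by the root mean square difference of log2(FPKM + 1), each gene centred on its mean over the 7 groups, among 18854 genes. The values describe likeness over 7 pooled values and carry no test. The choice depended on the measure. Of the 30 nearest genes, 9 were also among the 3 with the highest Pearson correlation to the same gene, and none for DUSP2 or DUSP5. Nearest to SPRY2 were YY1AP1 (0.052), TRAF2 (0.058) and GMPPA (0.066). Nearest to DUSP1 was COLEC12 (0.069), a gene of far lower level, with 31.4 FPKM at 40 minutes. Nearest to DUSP6 were SLCO2A1 (0.079), BMP2 (0.079) and RRBP1 (0.094), and nearest to DUSP8 were CXCL3 (0.14), TNFRSF12A (0.155) and CASZ1 (0.18). DUSP5 had MR1 (0.085), DUSP10 had LINC02108 (0.086), SPRY4 had ADARB1 (0.09), DUSP4 had CXCL16 (0.098) and DUSP16 had CCDC149 (0.098) as the nearest. DUSP2, at its low level, had no gene nearer than 0.332.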

How the data were processed

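New RNA labelled with EU was measured in HUH7 cells in 6 release groups and an asynchronous culture. The authors deposited FPKM for each RefSeq transcript, per the file headers, in 7 columns of 1 group each. Bowtie2 2.2.9, TopHat, bedtools, bcl2fastq and the build hg19 appear in the submitters' processing notes without their roles. Read totals, the use of strand in counting and the way libraries were pooled were not given in the sources used here. Low values repeated in steps of FPKM times the gene's length: at 0 minutes 176 of 794 low values lay within 0.5% of the step when length was the genome span with introns, and 22 of 3181 when it was the exon length (GENCODE 29 lengths), so levels per kilobase were read as per span. By the steps, relative depth against 0 minutes was 1.15 at 40, 1.49 at 80, 1.53 at 105, 1.75 at 165 and 1.66 at 300 minutes and 1.86 in the asynchronous culture.

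Of 48205 transcripts, 47127 matched a symbol in a RefSeq gene table (GRCh38.p14, names only). The 10 genes had 17 transcripts with 13 distinct sets of values, and a gene's value was the mean of its distinct sets. A gene was kept if it reached 1 FPKM in 3 or more groups (22940 of 24242). Differences were taken on log2(FPKM + 1), and genes at least 2-fold apart were counted in 8 comparisons. The code was tested on simulated data. With 1 value per group no test was run and no p-value is given. The genes and lists were chosen with earlier results of these data known. Named genes were all 10 and up to 4 per list and comparison (at least 2-fold, at least 10 FPKM in the higher group). The rule also took in ERRFI1, EGR1 and FOS always, and the 3 nearest genes of each of the 10. Single values outside this rule (KRTAP5-AS1, SPRY4-AS1, SPRY4-IT1 and HGF) were chosen after their values were seen. Alternatives were a pseudocount of 0.1, equal medians, quantile normalization, the transcript with the highest mean, a minimum of 10 FPKM and no filter. Motifs were searched in RefSeq promoter windows. Python 3.11.15, numpy 2.4.6, pandas 2.3.3, scipy 1.17.1 and matplotlib 3.10.9 were used.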

Additional observations from a re-analysis of the deposited data

How the results depend on the processing

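No paired analysis was possible because the table holds 1 pooled value per group; for the same reason leaving out a replicate was not run. Of 472 member differences recomputed, 457 stayed on the same side of 2-fold and 15 crossed it. The sign was the opposite in 27, all with equal medians or quantile normalization and none of them at least 2-fold as reported. Of 96 counts of genes at least 2-fold apart, 81 were equal to the reported one, 4 differed by up to 1.5 times and 11 by more; beyond what DUSP2 accounts for, the cause was not tested. A pseudocount of 0.1 gave 1 lower (0 as reported) for 105 against 80 and for 165 against 105 minutes and 3 lower (2) for 300 against 165 minutes, each by the addition of DUSP2. Equal medians gave 1 lower (3) for 0 minutes against the asynchronous culture and 5 lower (3) for 300 against 0 minutes. Quantile normalization gave, at 0 minutes against the asynchronous culture, 2 higher (1) and 1 lower (3), and 1 lower (0) for 80 against 40, 1 lower (0) for 165 against 105, 1 lower (2) for 300 against 165 and 5 lower (3) for 300 against 0 minutes. A minimum of 10 FPKM, which leaves out DUSP2, gave 0 higher (1) for 40 against 0 minutes, 2 lower (3) for 0 minutes against the asynchronous culture, 2 lower (3) for 300 against 0 minutes and 4 lower (5) for 300 minutes against the asynchronous culture. The transcript with the highest mean and no filter moved no count of the 10 genes.

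Scaling moved the median of all genes: with equal medians it was 0.19 for 0 minutes against the asynchronous culture, -0.09 for 80 against 40 and -0.14 for 300 against 0 minutes. Of all genes at least 2-fold apart, the share higher at 0 minutes than in the asynchronous culture was 42.7% as reported, 68.1% with equal medians and 32.4% with the minimum of 10 FPKM; at 80 against 40 minutes it was 83.2%, against 59.0% with equal medians and 56.6% with quantile normalization; at 165 against 105 minutes it was 30.1%, against 40.4% with quantile normalization. Of 528 list medians relative to all genes, 495 kept their sign and 33 did not. For the 10 genes at 40 against 0 minutes it was 0.20 as reported and -0.02 with quantile normalization. Leaving out DUSP2, an alternative chosen after seeing the data, kept the sign of the members' median in the 3 comparisons with 300 minutes. Among the 10 genes, only DUSP2 came to few steps.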

Other observations

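The atypical DUSP genes, whose products lack the MAP kinase binding region of the typical ones and in part act on RNA or other proteins, were measured beside the 10. Of 10 kept, 4 were at least 2-fold higher and none was lower at 80 against 40 minutes, with a median log2 difference of 0.56 and 0.18 over all genes, of which 13.5% were higher and 2.72% were lower. DUSP28 had 558 FPKM at 80 and 179 at 40 minutes (3.10-fold), DUSP18 had 126 and 48.5 FPKM (2.57-fold), DUSP19 had 48.9 and 19.4 FPKM (2.44-fold) and DUSP11, an RNA phosphatase, had 319 and 146 FPKM (2.17-fold). DUSP28 was again low at 165 minutes, with 105 FPKM, while DUSP11 had 400.1 FPKM there. At 300 against 0 minutes DUSP14 (45.2 FPKM at 300 and 148 at 0 minutes, 3.22-fold) and DUSP26 (2.16-fold) were lower and DUSP11 (2.36-fold) was higher, with 8.82% of all genes lower and 18.9% higher. DUSP3, a phosphatase of ERK and JNK without that region, had 438 FPKM at 0 minutes, 560.3 at 40, 562 at 80, 668 at 105, 807 at 165 and 847 at 300 minutes, against 844 FPKM in the asynchronous culture, and was chosen here after its values were seen.

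Of 19 receptors and adaptors, 7 were at least 2-fold lower at 0 minutes than in asynchronous cells and none was higher, with a median of -0.55 and -0.14 over all genes, of which 19% were lower and 14.1% were higher. Relative to all genes the list's median was -0.41 as reported, -0.22 with the minimum of 10 FPKM and -0.11 with quantile normalization. FGFR4, the receptor for the bile acid hormone FGF19, had 106 FPKM at 0 minutes and 607 FPKM in the asynchronous culture (5.65-fold lower), and FGF19 itself had 78.2 and 331 FPKM in the same groups (4.18-fold lower). FGFR3 had 693 FPKM at 80 and 201 at 40 minutes (3.43-fold higher), and MKNK2, a kinase activated by ERK and p38, had 468 FPKM at 0 minutes and 85.1 FPKM in the asynchronous culture (5.45-fold higher).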
